A study of Mus musculus with 12 samples.

Results

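Galnt3 and Galnt6 are 2 of the 84 glycosylation genes on a quantitative PCR array run on mouse dendritic cells. They were selected on their measured levels, because both moved together in both comparisons of the study, higher with TGF-beta and lower in tumor cells, so those differences are given here as descriptions without a test. Both genes encode polypeptide GalNAc transferases, Golgi enzymes that start mucin-type O-glycosylation by attaching N-acetylgalactosamine to serine or threonine of a passing protein. Other enzymes then extend this first sugar, so the transferases that a cell makes set which sites carry an O-glycan at all. The products of Galnt3 and Galnt6 are close relatives within the family. In people, GALNT3 is known for protecting the phosphate hormone FGF23 from cleavage, and GALNT6 for work in breast cancer cells. On dendritic cells, mucin-type O-glycans decorate surface proteins such as the selectin ligand PSGL-1.

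The 4 groups had 3 deposited samples each. DC2.4 is an immortalized mouse dendritic cell line, given TGF-beta for 4 days in the first group and left unstimulated in the second. The dose is stated as 2.5 ng/ml in the design text and as 10 ng/ml in the treatment protocol. Type 1 dendritic cells (DC1) were sorted from subcutaneous MCA101 fibrosarcomas of mice, labelled CD103-positive, and from spleen, labelled XCR-1-positive, and the tissue cannot be told apart from the marker used to sort. DC2.4 is a single cultured line and DC1 are cells taken from mice, so a difference between them cannot be told apart from a difference between culture and tissue. Of 20 listed markers of dendritic and neighbouring cell types, 0 are on the array, so the labelled cell types could not be checked.

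The files limit the sample number. In each group the third file was a constant times the mean of the first and second, in 334 of 360 wells compared within 0.002 cycles, and this relation held for Galnt3 and Galnt6 in all 4 groups. Each group therefore has n = 2 measured samples, and 8 samples are used in all. Whether they came from separate cultures or animals is not stated, so every spread given may be technical. The second tumor file and the third splenic file stood 1 well early and were used after moving them by 1 well. The authors' deposited table of fold changes runs opposite to the sample labels in the tumor comparison, and directions below follow the labels. With the labels of both DC1 groups exchanged, every tumor minus splenic difference given here would have the opposite sign. Between 64 and 76 of the 84 genes came up before a threshold cycle (Ct) of 35 in the 8 samples, and the 5 reference wells averaged a Ct between 16.96 and 24.32. Ct is the amplification cycle at which a well's fluorescence crosses its threshold, and a lower Ct means more template. Levels below are relative log2 levels, obtained by subtracting the gene's Ct from the average Ct of the 5 reference wells, with Ct over 35 set to 35. The primers of each assay are not known here, so a level of Galnt3 is not set against a level of Galnt6.

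In the RefSeq annotation of mouse build GRCm38.p6, Galnt3 (gene 14425) spans chr2:66082766-66125056 and Galnt6 (gene 207839) spans chr15:100689915-100729376. Both promoters are shown because the genes share a pattern across the 4 groups, and because TGF-beta signalling is known to act through SMAD proteins and, in other cell types, through the repressors of the ZEB and Snail families. Each RefSeq window of 300 bases lies on the minus strand and runs from 250 bases before to 50 after a start site. There is 1 window for Galnt3, at chr2:66124744-66125043, and 2 for Galnt6, at chr15:100729327-100729626 and chr15:100720428-100720727. The start site of the Galnt3 window lies 263 bases inside the outer end of the annotated gene, so the whole window is within the gene span. Of the Galnt6 start sites, the first is at the outer end of the gene and the second 8899 bases inside it. Capitals mark CACCTG or its reverse complement CAGGTG, the E-box letters that ZEB and Snail proteins bind.
Galnt3: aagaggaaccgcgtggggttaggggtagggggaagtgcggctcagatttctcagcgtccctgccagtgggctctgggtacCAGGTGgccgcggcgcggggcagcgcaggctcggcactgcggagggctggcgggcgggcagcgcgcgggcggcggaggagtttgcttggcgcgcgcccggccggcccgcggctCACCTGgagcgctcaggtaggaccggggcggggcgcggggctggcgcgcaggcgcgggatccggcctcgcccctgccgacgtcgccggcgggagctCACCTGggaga
Galnt6 first window: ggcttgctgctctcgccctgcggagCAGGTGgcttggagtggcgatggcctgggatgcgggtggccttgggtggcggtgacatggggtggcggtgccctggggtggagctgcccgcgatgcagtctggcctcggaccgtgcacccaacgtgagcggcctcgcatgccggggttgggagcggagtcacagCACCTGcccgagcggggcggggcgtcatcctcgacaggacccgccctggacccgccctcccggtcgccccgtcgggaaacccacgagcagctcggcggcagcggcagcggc
Galnt6 second window: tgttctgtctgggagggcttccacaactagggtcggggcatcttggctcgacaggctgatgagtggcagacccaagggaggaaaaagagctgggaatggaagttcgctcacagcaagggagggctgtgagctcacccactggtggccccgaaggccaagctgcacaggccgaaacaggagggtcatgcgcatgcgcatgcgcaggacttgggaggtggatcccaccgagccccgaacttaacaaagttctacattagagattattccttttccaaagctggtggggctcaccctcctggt

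The Galnt3 window held CACCTG on either strand 3 times, starting at positions -170, -57 and 40 from the start site. In the first Galnt6 window it stood 2 times, at -225 and -61, and the second Galnt6 window had 0. Among 32851 mouse promoter windows of the same length, 20.2% held the motif at least once, 2.88% at least 2 times and 0.365% at least 3 times. The share of G and C was 76.7% in the Galnt3 window and 73.7% in the first Galnt6 window, against 57.7% in the second Galnt6 window and a median of 52.7% over all windows. Only 2.67% of windows reach the share of the Galnt3 window and 5.1% that of the first Galnt6 window. The motif shares given here are over all windows, not over windows equally rich in G and C. GGGCGG, the GC box of Sp and KLF factors, stood 3 times in each of the Galnt3 and first Galnt6 windows, a number that 10.7% of windows reach.

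SMAD letters differed between the genes. GGCGC, a GC-rich SMAD element, stood 6 times in the Galnt3 window and 0 times in either Galnt6 window, while 36.9% of all windows held it and 3.2% held it 6 or more times. The short SMAD site AGAC, which 88% of windows hold, was found 0 times in Galnt3, 1 time in the first Galnt6 window and 2 times in the second. CAGACA, which contains AGAC, stood 1 time in the second Galnt6 window and 0 times in the others, against 21% of all windows. None of the 3 windows held the palindrome GTCTAGAC, which also contains AGAC (0.213% of windows), the AP-1 letters TGANTCA (7.81%) or TATAAA (13.6%). All motifs were searched on both strands, and a match describes letters in this window, not binding.

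Galnt3 and Galnt6 were highest in TGF-beta-treated DC2.4 cells and lowest in tumor DC1, and their unstimulated and splenic levels lay between, by the sample labels. With the DC1 labels exchanged, splenic DC1 would be lowest, and tumor DC1 would lie between, as unstimulated cells do. For Galnt3 the Ct was 24.4 and 19.3 in TGF-beta-treated cells and 26.8 and 22.3 in unstimulated cells. It was 35.1 and 32.5 in tumor DC1, against 28.3 and 31.7 in splenic DC1. The first tumor sample is thus past the limit of 35, and its level is an upper bound. For Galnt6 the Ct was 24.4 and 19.4 in TGF-beta-treated cells and 25.6 and 22.3 in unstimulated cells. Tumor DC1 gave 33.9 and 31.5 for Galnt6, against 26.8 and 29.8 in splenic DC1, so this gene was under the limit in all 8 samples.

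Relative to the reference wells, Galnt3 stood at -2.33 and -2.35 in TGF-beta-treated cells, against -6.14 and -5.33 in unstimulated cells. The difference averaged 3.40 (SE 0.41), a 10.5-fold higher level, with 3.81 between the first samples and 2.98 between the second. Galnt6 stood at -2.36 and -2.42 in TGF-beta-treated cells, against -4.93 and -5.35 in unstimulated cells. Its difference averaged 2.75 (SE 0.21), or 6.74-fold, with 2.57 and 2.93 for the same pairs of files. For both genes the treated samples lay above the unstimulated samples with no overlap. Such a separation upward was found for 29.0% of the 69 genes compared and downward for 10.1%, and the median difference of the panel was 0.29. By size of increase Galnt3 was number 6 and Galnt6 number 14 of the 69 genes. Relative to the panel median, the increases were 3.11 and 2.46.

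**Figure D1:**
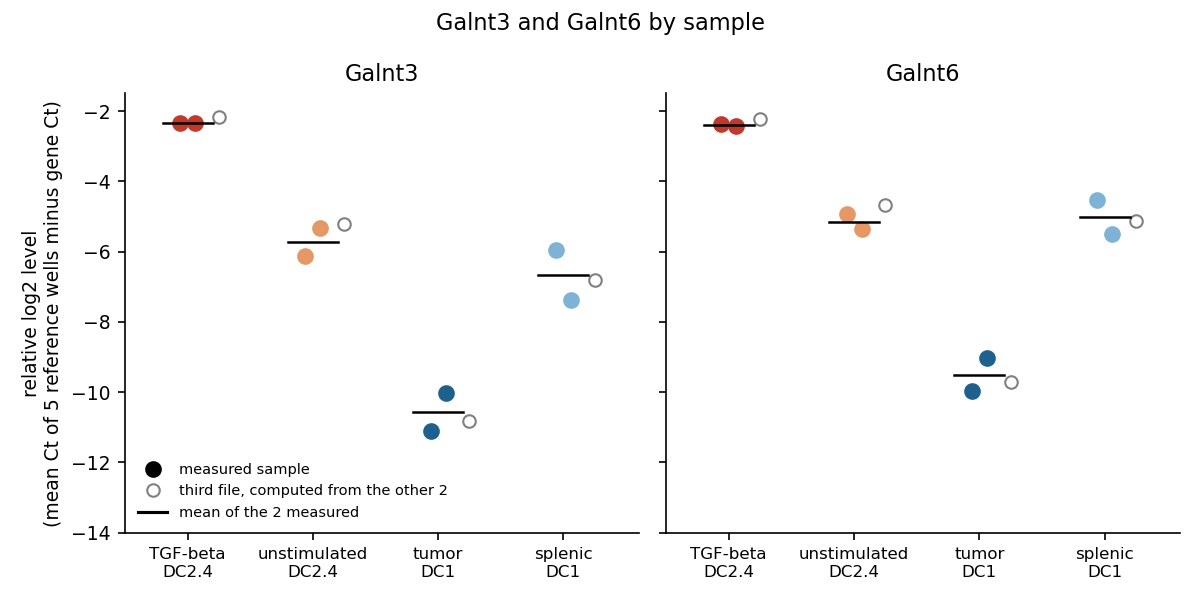
Relative log2 level (reference-well Ct, averaged over 5 wells, minus gene Ct) of Galnt3 on the left and Galnt6 on the right, by group. Filled points are the 2 measured samples, the bar is their mean and the open point is the third file, computed from the other 2. In both panels TGF-beta-treated DC2.4 cells stand highest, between -2.42 and -2.33, and tumor DC1 lowest, between -11.1 and -9.0.

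In tumor DC1 the Galnt3 level was -11.10 and -10.02, against -5.96 and -7.39 in splenic DC1. The mean difference was -3.89 (SE 0.90), 14.8-fold lower, and because the first tumor sample sits at the limit the true fold may be larger. Galnt6 stood at -9.97 and -9.04 in tumor DC1, against -4.53 and -5.49 in splenic DC1. Its difference of -4.49 (SE 0.67) is 22.5-fold lower and the lowest of the 61 genes compared. Galnt3 was the second lowest, practically level with B3gnt8 at -3.88, and B4galt5 followed at -3.28. These ranks rest on the values that chose the pair. With the DC1 labels exchanged, Galnt6 and Galnt3 would be the highest and the second highest in tumor DC1. The tumor samples lay below the splenic samples without overlap for both genes, as they did for 41.0% of the 61 genes, while 6.56% were separated upward, shares that would trade places with the labels exchanged. The panel median was -0.39, so Galnt3 and Galnt6 stood at -3.50 and -4.11 relative to it.

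The size of the tumor difference depended on the reference well. The Ct of the Gapdh well minus the average of the 5 reference wells was 1.84 and 1.67 cycles in tumor DC1, against -0.16 and -0.27 in splenic DC1. For the Actb well it was -2.97 and -3.30 cycles in tumor DC1, against -1.97 and -2.45 in splenic DC1. Over 7 choices of reference, the tumor difference of Galnt3 ran from -4.81 to -1.91 and that of Galnt6 from -5.42 to -2.52. With TGF-beta the same choices gave 2.59 to 3.90 for Galnt3 and 1.95 to 3.26 for Galnt6. The direction held under all 7 for both genes and both comparisons.

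Between both groups without TGF-beta or tumor, the genes were close when the 5 reference wells were averaged. Galnt3 averaged -6.67 ± 1.01 in splenic DC1 and -5.73 ± 0.57 in unstimulated DC2.4 cells (SD, n = 2 each), a difference of -0.94 with overlapping samples. Galnt6 averaged -5.01 ± 0.68 in splenic DC1 and -5.14 ± 0.30 in unstimulated DC2.4 cells, a difference of 0.13, also with overlap. Relative to the panel median of 0.34, Galnt3 stood at -1.28 and Galnt6 at -0.21. Of 64 genes compared between these groups, 34.4% were separated upward and 21.9% downward. With Actb alone as reference, Galnt3 stood at -7.93 and -9.84 in splenic DC1, against -7.57 and -6.22 in unstimulated cells. Galnt6 stood at -6.50 and -7.94, against -6.37 and -6.25. With that reference both genes lay lower in splenic DC1 without overlap. At the far ends of the order, tumor DC1 minus TGF-beta-treated cells was -8.22 for Galnt3 (298-fold lower) and -7.11 for Galnt6 (138-fold lower), without overlap. There 53.7% of 67 genes were separated downward and 20.9% upward. These differences share samples with those that chose the genes and carry no test.

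The mean of the 4 DC1 samples was set against the mean of the 4 DC2.4 samples for every gene in one limma model of the 4 groups. Every SE and p from this model rests on the spread between the 2 samples within a group. It does not measure the spread among the 4 DC1 or the 4 DC2.4 samples, which for Galnt3 had an SD of 2.36 and 1.99. Galnt3 averaged -8.61 in DC1 and -4.03 in DC2.4, a difference of -4.58 (SE 0.49), and Galnt6 averaged -7.26 in DC1 and -3.77 in DC2.4, a difference of -3.49 (SE 0.44). This contrast is not free of the choice of genes, because it is the splenic minus unstimulated difference plus 0.5 times the tumor difference less the TGF-beta difference. With the 5 wells averaged, the parts were -0.94 and -3.64 for Galnt3 and 0.13 and -3.62 for Galnt6. With this reference, most of the Galnt3 value and all of the Galnt6 value come from the differences that chose the genes. The parts move with the reference, and with Actb alone splenic DC1 lay below unstimulated cells for both genes. No p is given for either gene. Over 7 choices of reference the difference ran from -6.02 to -2.93 for Galnt3 and from -4.93 to -1.84 for Galnt6. The single DC1 and DC2.4 samples overlapped for both genes.

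The gap in Ct between the 2 assays within a sample does not depend on the reference wells. Its absolute size depends on the primers of each assay, so only its variation between samples is described, and it carries no test because the genes were selected on the same Ct values. Galnt6 Ct minus Galnt3 Ct was -1.12 and -0.98 cycles in tumor DC1 and -1.42 and -1.89 in splenic DC1, with Galnt3 in the first tumor sample at the limit. In DC2.4 cells the gap was 0.03 and 0.08 cycles with TGF-beta and -1.20 and 0.03 without. The first unstimulated sample thus lay within the range of the DC1 samples, and the other 3 DC2.4 samples lay near 0. The gap averaged -1.35 ± 0.40 cycles in DC1 and -0.27 ± 0.62 in DC2.4 (SD, n = 4 each), a difference of -1.09 cycles between overlapping groups.

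The array carries 17 GalNAc transferases. Of these, 10 entered the fit on all 4 groups, though not all 10 could be compared within each pair of groups. Galnt14 came up too late. Galnt5, Galnt13, Galnt16, Wbscr17, Galntl5 and Galntl6 were left out of that fit because some of their values broke the relation to the third file or repeated other wells. In the TGF-beta comparison, 9 transferases besides Galnt3 and Galnt6 had a value, with a median difference of 0.14. Galnt9 differed by 3.38, Galnt7 by 1.56 and Galnt1 by 0.43 with no overlap, and Galnt4 by -0.40, also with no overlap. That is 3 of 9 separated upward and 1 downward, near the 29.0% and 10.1% of all 69 genes. The Galnt7 value rests on the first treated sample, at -1.63, since the second stood at -4.42, against -4.64 and -4.53 in unstimulated cells. Galnt9 was a late gene, with a lowest Ct of 28.3. Galntl6, Galnt2, Galnt12, Galnt10 and Galnt11 overlapped between groups, at 2.36, 0.14, -0.21, -0.59 and -0.77. Galnt1 and Galnt2, which are broadly expressed initiators, and Galnt4 and Galnt12 changed sign under at least 1 other choice of reference.

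In the tumor comparison the other 7 transferases had a median difference of 0.11, against -3.89 and -4.49 for Galnt3 and Galnt6. Galnt12 stood 1.57 and Galnt10 1.33 higher in tumor DC1 without overlap, and both stayed above 0 under all 7 choices of reference. Galnt2 differed by -1.24 and Galnt4 by -0.73 without overlap, both turning above 0 with 1 of the 7 choices. Galnt7, Galnt11 and Galnt1 overlapped, at 0.61, 0.11 and -0.11. That is 2 of 7 separated upward and 2 downward, against 6.56% and 41.0% of all 61 genes. Among the transferases compared, Galnt3 and Galnt6 alone were below 0 under all 7. A change of reference moves every gene by the same amount, so this restates the size of the differences that chose the pair. Galnt9 came up too late to be compared here, at a Ct of 38.8 and 35.4 in tumor DC1 and 32.3 and 35.3 in splenic DC1.

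**Figure D2:**
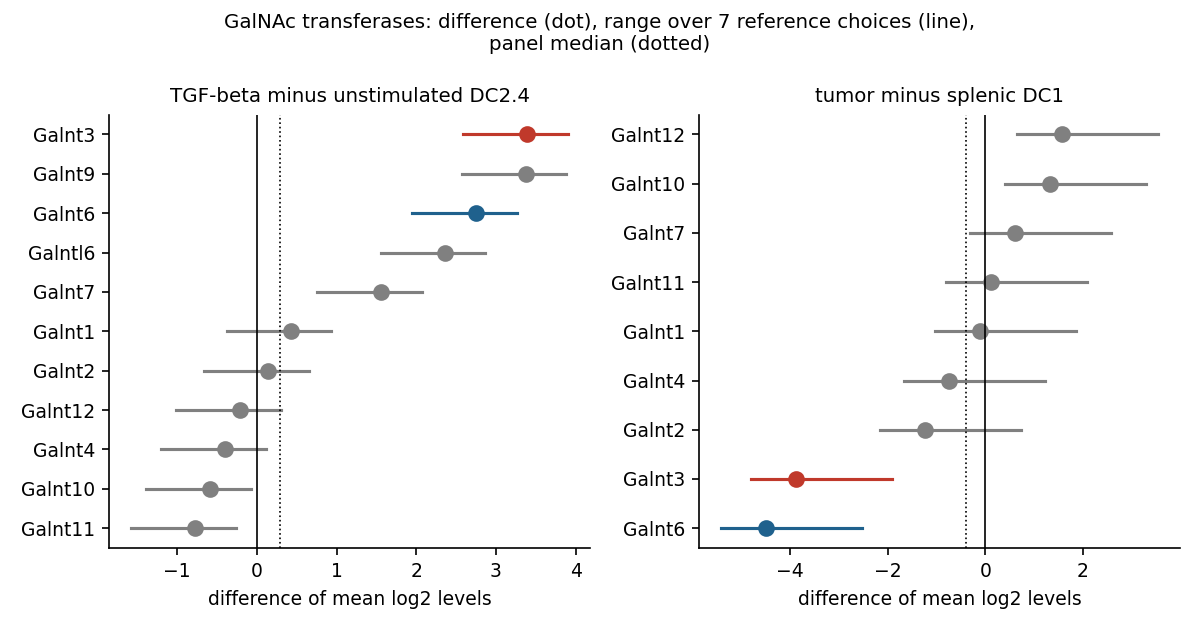
Log2 difference of each GalNAc transferase compared, TGF-beta minus unstimulated DC2.4 on the left and tumor minus splenic DC1 on the right, with lines for the range over 7 choices of reference and a dotted line at the panel median. Galnt3 and Galnt6 lie at 3.40 and 2.75 with TGF-beta and at -3.89 and -4.49 in tumor DC1. The other transferases have medians of 0.14 and 0.11, and Galnt9 lies at 3.38 with TGF-beta, above Galnt6.

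Between DC1 and DC2.4 the GalNAc transferases differed in direction, as genes of the whole panel did. Among the 8 transferases other than Galnt3 and Galnt6, 2 were higher, 1 was lower and 5 did not pass (limma, two-sided, Benjamini-Hochberg adjusted p at most 0.05 over 62 genes), with a median of 0.38. Over all 62 genes, 33.9% were called, 12.9% higher and 21.0% lower, and the median was -0.28. The share called among these transferases was thus close to that of the panel. Galnt12 was at -6.26 and -6.49 in tumor DC1 and -6.61 and -9.28 in splenic DC1. In DC2.4 cells it stood at -12.93 and -17.09 with TGF-beta and at -14.37 and -15.24 without, where its Ct was 32.2 or later and in 2 of the 4 samples past the limit of 35. The difference was 7.75 (SE 0.86, limma adjusted p = 7.53e-05), and all 4 DC1 samples lay above all 4 DC2.4 samples. Galnt10, an enzyme that prefers substrates already carrying a sugar, was 4.26 higher in DC1 (SE 0.66, limma adjusted p = 0.000568), with 1 of the 4 DC2.4 samples past the limit. Both were called under all 7 choices of reference.

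Galnt2 was lower in DC1, with a difference of -1.46 (SE 0.46, limma adjusted p = 0.0272), though single DC1 and DC2.4 samples overlapped. It was called under 5 of the 7 choices of reference, and its sign turned with the Gapdh well. The splenic minus unstimulated part of the Galnt2 value was -0.77, with overlap, and the rest comes from the tumor and TGF-beta differences. Galnt7, another follow-on enzyme of the family, had -1.52 and did not pass (limma adjusted p = 0.072). Galnt9, Galnt1, Galnt4 and Galnt11 had 0.90, 0.40, 0.36 and 0.01 and did not pass either. The split over all genes moved with the reference, from 8 higher and 13 lower with 5 wells to 3 and 33 with Actb alone and 30 and 3 with Gapdh alone.

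**Figure D3:**
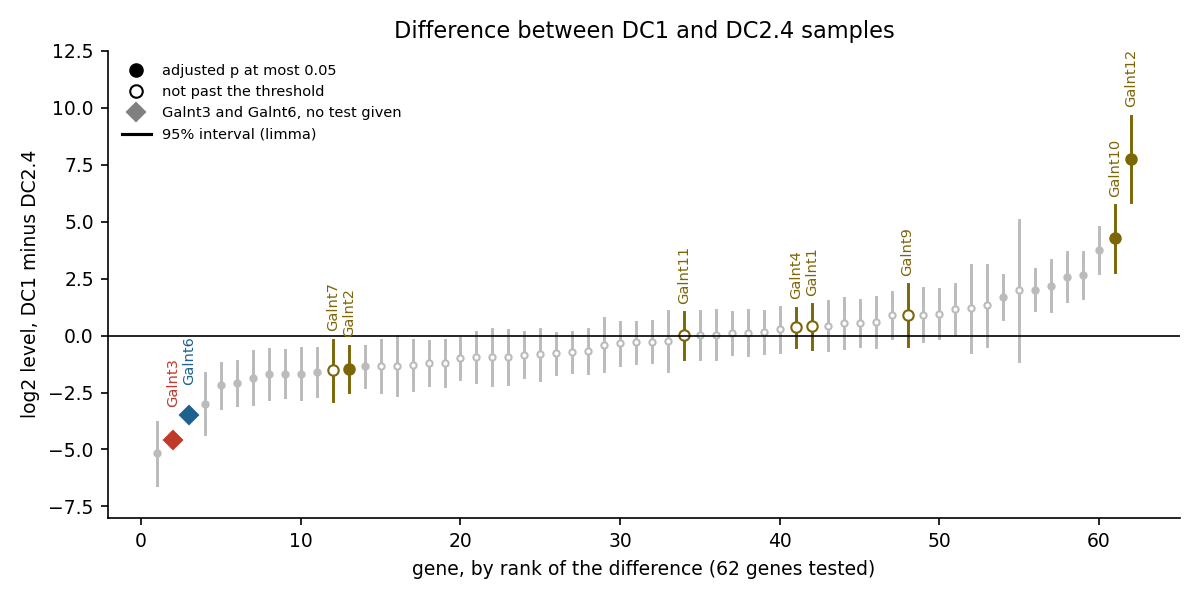
Log2 difference, DC1 minus DC2.4, of the 62 genes tested, ordered by size, with 95% intervals from limma for all but Galnt3 and Galnt6. Filled circles passed an adjusted p of 0.05, and diamonds mark Galnt3 (-4.58) and Galnt6 (-3.49), for which no test is given. Galnt12 (7.75) and Galnt10 (4.26) lie at the other end.

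The steps after initiation were read from a list of 9 array genes, of which 6 could be compared. With TGF-beta, B3gnt3, which extends core 1 with N-acetylglucosamine, differed by 3.88, and C1galt1, which makes core 1 by adding galactose, by 1.88. Both separated without overlap. C1galt1c1, the chaperone of C1galt1, was at -0.05, and the core 2 enzyme Gcnt1 at -0.20. The sialyltransferases St3gal2 and St3gal1 were at 0.31 and -0.03, and these 4 genes overlapped between groups. In tumor DC1, B3gnt3 (-2.78), St3gal1 (-1.15) and C1galt1c1 (-0.39) lay below splenic DC1 without overlap, while Gcnt1 (-0.69), C1galt1 (-0.25) and St3gal2 (-0.07) overlapped. Downward separation was found for 41.0% of all genes compared. B3gnt3 stayed below 0 under all 7 choices of reference, while St3gal1 turned above 0 under 1 of them and C1galt1c1, whose value equals the panel median, under 2. The list's medians were 0.14 with TGF-beta and -0.54 in tumor DC1, against panel medians of 0.29 and -0.39.

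DC1 differed from DC2.4 in 4 of these 6 genes, against 33.9% of all 62 genes (limma, Benjamini-Hochberg adjusted over the 62). B3gnt3 fell by 5.17 (adjusted p = 9.18e-05), Gcnt1 by 2.99 and C1galt1 by 2.19 (adjusted p = 0.00296 for both). St3gal1 was 2.02 higher (adjusted p = 0.00296). C1galt1c1 and St3gal2, at -0.72 and -0.94, did not pass. The splenic minus unstimulated part of this contrast was -1.84 for B3gnt3, -2.75 for Gcnt1, -1.12 for C1galt1 and 2.57 for St3gal1. The rest of each value comes from the tumor and TGF-beta differences, so for B3gnt3 and C1galt1 much of it is not a difference between untreated cell types. The B3gnt3 fall was called under all 7 choices of reference, that of Gcnt1 under 6, and those of C1galt1 and St3gal1 under 5 each.

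Across the 8 samples, the profile most like that of Galnt3 was that of Galnt6 (Pearson r = 0.977), which the choice of the pair fixes in part. B3gnt3 (0.967), B4galt1 (0.947), C1galt1 (0.890) and Galnt2 (0.873) followed among 61 other genes. After each profile was centred on its own mean, the root mean square difference from Galnt3 was 0.71 for Galnt6 and 0.82 for B3gnt3, and 1.36, 1.88 and 2.19 for B4galt1, C1galt1 and Galnt2. For Galnt6 the nearest after Galnt3 were B4galt1 (r = 0.953), B3gnt3 (0.918), B4galt5 (0.904) and Neu1 (0.887), with root mean square differences of 0.99, 1.31, 1.17 and 1.29. B4galt1 and B4galt5 add galactose to N-acetylglucosamine or glucose, and Neu1 removes sialic acid in the lysosome. All profiles share the same reference wells and the same 4 groups, so these values are a description.

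B3gnt3 shows how close such profiles came. It stood at -1.36 and -3.48 in TGF-beta-treated cells and -6.53 and -6.06 in unstimulated cells. In tumor DC1 it was at -10.97 and -10.86, against -6.92 and -9.36 in splenic DC1. Its order of groups was that of Galnt3, with splenic and tumor samples closer together.

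**Figure D4:**
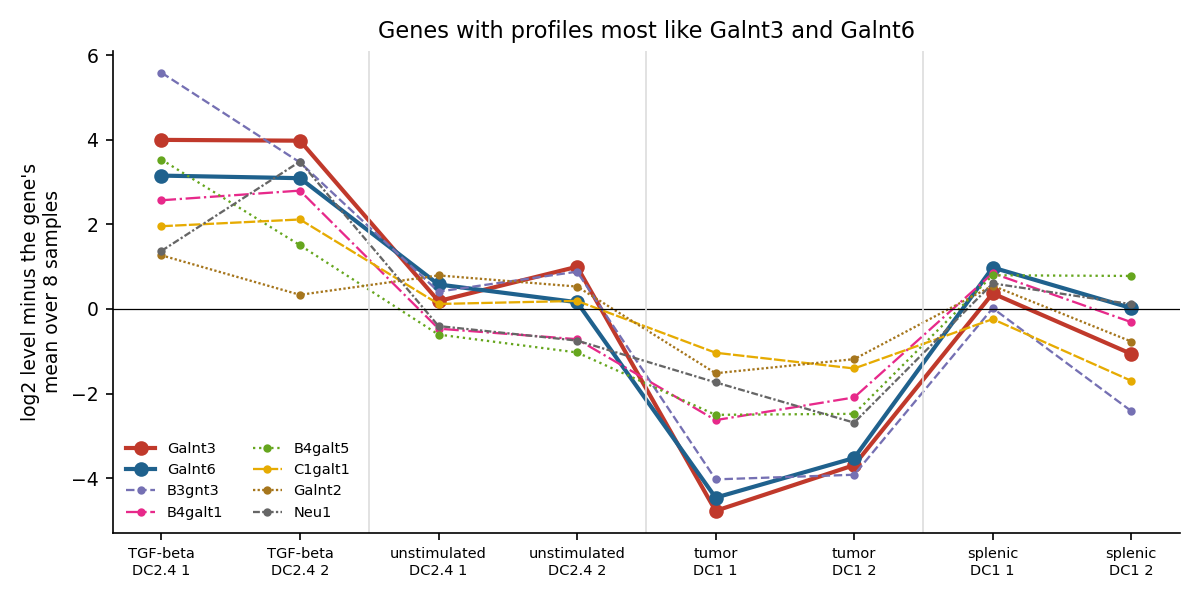
Profiles over the 8 measured samples of Galnt3, Galnt6 and the genes most like each, as relative log2 level minus the gene's own mean. Galnt6 is nearest to Galnt3 (r = 0.977), followed by B3gnt3 (0.967), and every gene drawn except C1galt1 has its lowest value in tumor DC1.

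The authors' deposited table gives 3 fold changes per comparison. With TGF-beta over untreated it lists 14.0, 8.8 and 10.96 for Galnt3 and 5.95, 3.73 and 6.79 for Galnt6. The sample files, with the 5 reference wells averaged, gave 14.0 for Galnt3 between the first samples and 7.89 between the second. The mean was 10.96. For Galnt6 they gave 5.95 and 7.63, with a mean of 6.79. The first and the third value of the table thus match the first pair and the mean of both pairs, as they did within 0.01 in 79 and 75 of 83 genes. The second column was the first divided by 1.59 to 1.60 in the 36 genes where it was at least 1. For tumor over spleen the authors' deposited table lists 13.6, 8.33 and 14.5 for Galnt3 and 17.5, 15.3 and 13.6 for Galnt6, higher in tumor, where the labelled samples are lower. Over 61 genes the log2 of a table column plus the files' tumor minus splenic difference had a median of -0.36 to -0.37 and an interquartile range of 0.05 to 0.06. Over the panel the table therefore follows splenic over tumor of the files apart from a constant, and which of both carries the right labels cannot be told apart here. Galnt3 and Galnt6 kept to that constant less closely, except Galnt6 in the first column. Their log2 table values were 3.77, 3.06 and 3.86 for Galnt3 and 4.13, 3.94 and 3.77 for Galnt6, against file differences of -3.89 and -4.49.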

How the data were processed

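Per the labels' protocols, SYBR Green PCR was run on plates of 96 wells holding 84 panel genes and 5 reference wells. The deposited sample files list a threshold cycle (Ct) per well, a log2 scale, with a baseline of cycles 3 to 15 and a threshold of 0.2 per the file headers. The deposited series matrix holds log2 values (Ct minus that of beta-actin), used to name wells. The authors' table holds fold changes, a ratio to the control that the file headers call normalized to beta-actin. Its first TGF-beta column instead matched folds relative to the average of the 5 reference wells, in 79 of 83 genes. The files name only the Actb reference well, and the other 4 are named after the manufacturer's usual layout.

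Here Ct over 35 and blanks were set to 35, and the gene's Ct was subtracted from the average Ct of 5 reference wells. Genes had to come up before cycle 35 in 2 or more of 4 samples to be compared (4 of 8 for the fit on all groups), and 19 genes with values that broke the third-file relation or repeated a well were left out of that fit. The third file's factors were the mean divided by 1.08 (TGF-beta) or 1.1 (unstimulated), or multiplied by 1.021 (both DC1 groups). After moving by 1 well, 81 of 81 wells of the second tumor file and 82 of 92 of the third splenic file met this relation, against 0 before. limma 3.58.1 in R 4.3.3 (lmFit, eBayes, two-sided) fitted the 4 groups, with Benjamini-Hochberg adjustment over 62 genes. The planned tests of Galnt3 and Galnt6 in this contrast, and of their Ct gap, were run, but no p is given because both rest on the values that chose the genes. On simulated data for these 62 genes, 22%, 81.5%, 92% and 97% of changes of log2 1, 2, 3 and 4 were recovered. The simulation drew independent noise for each gene, without a Ct limit, a shared error of the reference wells or TGF-beta and tumor effects. Recovery in the real data may therefore be lower. Other steps used scipy 1.17.1, pandas 2.3.3 and matplotlib 3.10.9 under Python 3.11.15.

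The members and lists were chosen with earlier results of these data known. Named genes were Galnt3, Galnt6, the other GalNAc transferases, the O-glycan list and the 5 genes most correlated with each member. Promoters came from RefSeq (GRCm38.p6). Of the panel symbols, 83 matched RefSeq and 1 (Wbscr17) matched as a synonym. Alternatives changed the reference, late Ct, filter, files, prior and samples. The number of samples limits the precision, and no counting interval applies to Ct.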

Additional observations from a re-analysis of the deposited data

How the results depend on the processing

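No paired analysis was run, because the labels number the samples through the series and tie no sample of one group to one of another. The authors' deposited table sets first with first samples, and in DC2.4 cells the reference wells averaged a Ct of 22.07 with and 20.63 without TGF-beta in the first samples and 16.97 and 16.96 in the second. The labels state no shared run. Of the 62 genes tested between DC1 and DC2.4, 21 passed, against 36, 7, 33 and 34 with the Actb, B2m, Gapdh or Gusb well alone as reference and 39 with all 12 files. Higher and lower calls were 9 and 25 with Gusb and 16 and 10 with Hsp90ab1, against 8 and 13 with 5 wells, and leaving out 1 sample gave 14 (without the second tumor sample) to 28 (without the first splenic sample) calls. The median of all genes moved between -1.72 (Actb) and 1.37 (Gapdh).

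The TGF-beta difference of Galnt3 was 3.90 with B2m and 2.59 with the panel mean, and that of Galnt6 was 3.26 with B2m, 2.47 with Gapdh and 1.95 with the panel mean. Leaving out 1 sample gave 2.99 to 3.80 and 2.54 to 2.96. The tumor difference of Galnt3 was -4.81 with Actb and with Gusb, -1.91 with Gapdh and -6.39 with late Ct set to 40, and that of Galnt6 was -5.41, -5.42 and -2.52 with Actb, Gusb and Gapdh. Without 1 sample these ran from -4.60 to -3.17 and from -4.97 to -4.01. The DC1 minus DC2.4 differences ran from -4.94 to -4.22 for Galnt3 and from -3.73 to -3.25 for Galnt6 without 1 sample, from -6.02 (Actb) to -2.93 (Gapdh) and from -4.93 to -1.84 with other references, and Galnt3 was at -5.83 with late Ct set to 40. The gap between both genes differed by -1.11 cycles over all 12 files, by -2.34 with late Ct set to 40, and by -1.40 to -0.91 without 1 sample. No direction of either gene reversed under the alternatives run. The late Ct of Galnt3 in tumor DC1 limits its level there.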
